A study of Mus musculus with 12 samples.

Results

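Among 6 libraries of mouse MLL-AF9 leukemic cells with a floxed Hoxa cluster, 3 held little *Mki67* RNA and 3 held much, and the split crossed the Cre label. The libraries were chosen by their *Mki67* value, with 40 FPKM (fragments normalized to transcript length in kilobases and to library size) as the threshold, out of 12 libraries in the series. The low set is Hoxa-flox 1, Hoxa-flox 2 and Hoxa-del 2, and the high set is Hoxa-flox 3, Hoxa-del 1 and Hoxa-del 3. Values of a set are given below in this order. *Mki67*, which encodes the proliferation antigen Ki-67, read 16.4, 14.9 and 17.8 FPKM in the low set and 88.5, 84.6 and 93.2 FPKM in the high set. The values nearest to the threshold were therefore 17.8 and 84.6 FPKM. The 6 WT libraries, which served as a reference, lay between 65.1 and 78.2 FPKM.

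All 12 libraries came from leukemic bone marrow cells of adult mice transformed by MLL-AF9 (MA9), a fusion of the histone methyltransferase MLL with AF9. The floxed cells were of strain C57BL/6J and carried a Hoxa cluster flanked by loxP sites; the WT cells were of strain C57BL/6 and carried an unmodified cluster. Cells were kept overnight in SCF, GM-CSF, IL-3 and IL-6, infected with a retrovirus and sorted for high GFP. The virus was a control in WT-GFP and Hoxa-flox and carried Cre recombinase in WT-Cre and Hoxa-del, with 3 libraries in each of the 4 groups. The labels do not say whether the libraries of a group came from separate cultures, leukemias or animals. The strain, the leukemia and the genotype differ together between floxed and WT cells, so their effects cannot be told apart.

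Dividing cells switch on genes in 2 waves. Genes of DNA replication are released by E2F transcription factors in S phase, and genes of mitosis, *Mki67* among them, are held down in resting cells by the DREAM complex, which binds the cell cycle genes homology region (CHR) of their promoters. Interferons act through transcription factors that bind the interferon-stimulated response element (ISRE). In the myeloid lineage, differentiating progenitors leave the cell cycle and begin to make granule and surface proteins of neutrophils and monocytes. MLL-AF9 keeps Hoxa genes active and thereby blocks this differentiation.

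The promoters of example genes of these programs are shown first, as the 200 bases before the annotated start in RefSeq (GRCm38.p6), 5′ to 3′ on the gene's strand. Apart from *Mki67*, they were picked for the largest difference between the sets among members with a match in the stretch shown. That each holds a match was therefore fixed by the choice. *Mki67* (chr7:135716380-135716579, minus strand) is the gene that chose the libraries, and *Kif11* (chr19:37376182-37376381, plus strand) and *Pola1* (chrX:93632156-93632355, minus strand) stand for mitosis and DNA replication. *Oas3* (chr5:120777660-120777859, minus strand) and *Isg15* (chr4:156200819-156201018, minus strand) stand for the interferon response. Capitals mark the CHR letters TTTGAA in *Mki67* and *Kif11*, an E2F element in *Pola1* and ISRE letters (GAAA, any 2 bases, GAAA) in *Oas3* and *Isg15*, each on either strand.
Mki67: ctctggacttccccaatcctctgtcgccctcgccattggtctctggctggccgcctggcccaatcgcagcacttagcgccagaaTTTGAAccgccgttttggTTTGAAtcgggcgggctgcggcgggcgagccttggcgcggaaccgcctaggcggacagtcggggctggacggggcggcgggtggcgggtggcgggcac
Kif11: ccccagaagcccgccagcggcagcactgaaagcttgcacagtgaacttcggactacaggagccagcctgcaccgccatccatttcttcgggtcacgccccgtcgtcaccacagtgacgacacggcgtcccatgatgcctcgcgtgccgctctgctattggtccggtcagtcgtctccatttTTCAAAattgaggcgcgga
Pola1: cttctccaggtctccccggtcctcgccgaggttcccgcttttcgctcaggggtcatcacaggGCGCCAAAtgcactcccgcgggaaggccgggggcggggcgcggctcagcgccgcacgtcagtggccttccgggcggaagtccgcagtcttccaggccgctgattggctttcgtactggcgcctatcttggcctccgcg
Oas3: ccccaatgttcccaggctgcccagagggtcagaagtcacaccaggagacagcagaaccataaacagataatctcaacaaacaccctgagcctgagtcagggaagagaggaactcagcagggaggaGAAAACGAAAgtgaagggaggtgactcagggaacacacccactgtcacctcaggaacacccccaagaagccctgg
Isg15: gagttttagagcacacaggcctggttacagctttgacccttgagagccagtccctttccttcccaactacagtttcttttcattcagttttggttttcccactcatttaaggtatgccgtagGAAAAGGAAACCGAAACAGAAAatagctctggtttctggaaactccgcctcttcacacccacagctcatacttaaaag

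In *Mki67* the 2 CHR matches began 116 and 98 bases before the start, and in *Kif11* the match lay 19 bases before it. *Isg15* held 3 ISRE matches that overlap each other, which began 78, 72 and 66 bases before the start. Over windows from 250 bases before to 50 bases after each start, the CHR letters were found in 69.2% of 39 windows of mitosis genes and in 17.9% of all 32851 windows. The ISRE letters were found in 39.5% of 43 windows of interferon response genes and in 3.44% of all windows. The E2F letters TTTGGCGC were found in 13.2% of 38 windows of S phase genes against 0.514% of all windows. These are matches of letters and not measured binding.

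The 2 sets differed across much of the transcriptome. Of 12843 symbols that averaged at least 1 FPKM over the 6 libraries, 2990 had all 3 high libraries above all 3 low libraries and 4182 had the reverse, 55.8% in all. The difference is the mean log2(FPKM + 1) of the high set minus that of the low set, a scale that understates the difference of low genes. Among the symbols without overlap, 856 (6.67% of those measured) were higher in the high set by at least 1 on this scale and 892 (6.95%) were higher in the low set by as much. These counts describe the libraries that *Mki67* selected, and no test was made of them. The shares of 6.67% and 6.95% are the background for the counts of each gene group below. With equal upper quartiles the counts were 1039 and 694, and with equal median ratios 1077 and 664, so the share higher in the high set went from 49.0% to 59.95% and 61.9%. In bulk RNA, fewer cells of a type and less RNA per cell cannot be told apart.

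Libraries of a set resembled each other irrespective of the virus. Across symbols, r was 0.973 to 0.986 within the low set, 0.946 to 0.974 within the high set and 0.903 to 0.920 between the sets. The median SD per symbol was 0.144 in the low set and 0.220 in the high set, below the 0.296 of Hoxa-flox and the 0.362 of Hoxa-del. The first principal component of the 6 libraries held 63.9% of the variance.

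The split can be measured once with each virus, in libraries that are not shared: as Hoxa-flox 3 minus Hoxa-flox 1 and 2, and as Hoxa-del 1 and 3 minus Hoxa-del 2. The 2 differences had r = 0.71 and a Spearman rho of 0.73 across 12843 symbols, which are not independent of each other. At least 1 higher in the high set with both viruses were 538 symbols, and 613 were as much higher in the low set with both. Only 28 symbols were at least 1 apart in opposite directions. The *Mki67* rule set the direction of both differences, so part of this agreement is built in.

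**Figure D1:**
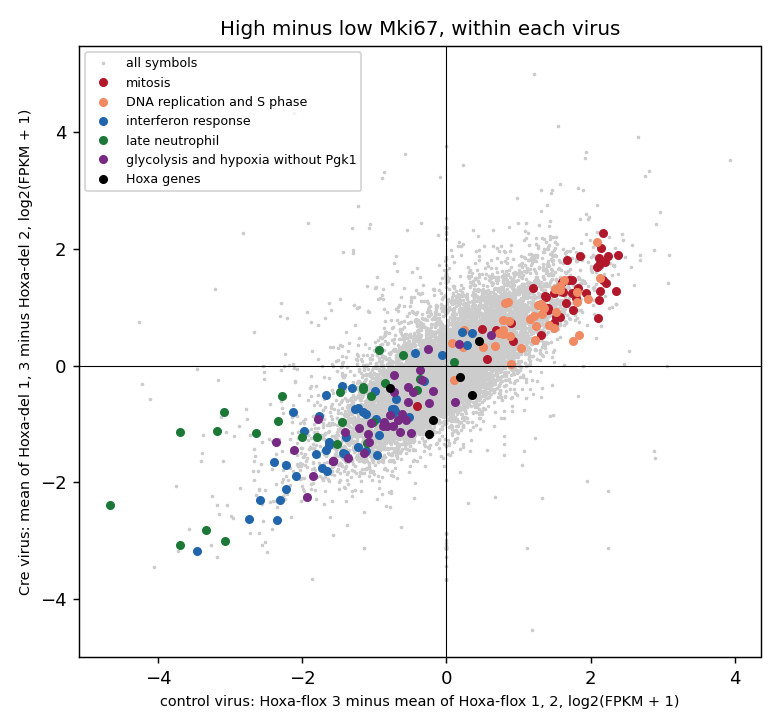
Difference between high and low *Mki67* libraries on the log2(FPKM + 1) scale with the control virus (x axis) and with the Cre virus (y axis); each point is a symbol and colors mark gene groups. Genes of mitosis and S phase lie mainly at the upper right, and interferon, late neutrophil and glycolysis genes mainly at the lower left.

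The difference also moved with base composition. Across 12204 symbols with a transcript sequence, 95.0% of those measured, the Spearman rho between the difference and the GC content was -0.49, and 0.14 for transcript length. In 5 bins of equal size, the bin with the lowest GC content (30.8% to 43.9%) had a median difference of 0.49 and the bin with the highest (55.1% to 86.5%) a median of -0.44. Symbols higher in the high set had a median GC content of 42.3% and those higher in the low set 53.5%, against 49.6% overall. The part of GC content in the gene differences was not tested. After each library was centred within bins of GC content and length, 591 symbols were higher in the high set and 539 in the low set, of which 409 and 399 were also in the counts above; 772 and 860 of those had a GC value. Medians after this centring are therefore given beside the main gene groups below, with the counts where they moved by over 1.5 times and by at least 2 members. Estimated depth did not separate the sets: it was 5.91 to 12.4 M fragments in the low set and 7.16 to 14.1 M in the high set.

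**Figure D2:**
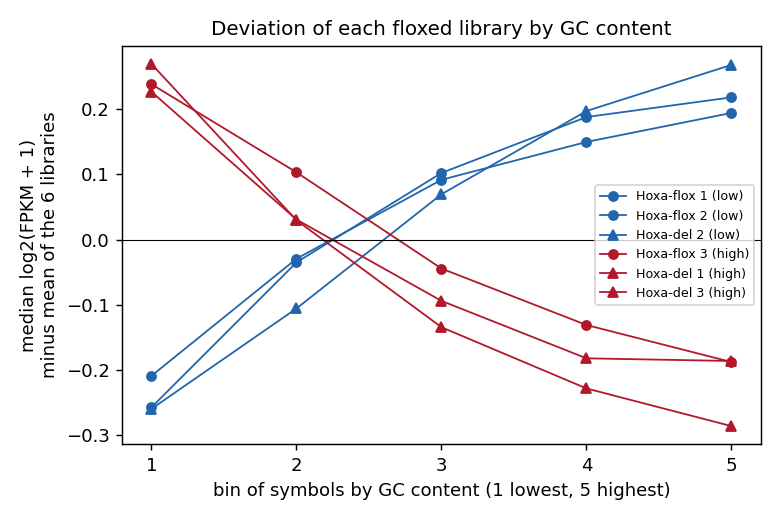
Median deviation of each floxed library from the mean of the 6 on the log2(FPKM + 1) scale (y axis) in 5 bins of GC content (x axis); blue is the low set, red the high set, circles are control virus and triangles Cre. In the bin with the lowest GC content the low set lies at -0.26 to -0.21 and the high set at 0.23 to 0.27, and the order is the reverse in the bin with the highest.

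The myeloid lineage of the cells was checked against markers, which cannot tell leukemic from normal progenitors. *Elane*, *Prtn3*, *Ctsg* and *Ms4a3*, genes of the granulocyte and monocyte progenitor, read at least 150.6 FPKM in each of the 6 libraries, and the pan-leukocyte gene *Ptprc* at least 53.9 FPKM. *Mpo*, another gene of that progenitor, did not follow them: it read 4.42, 3.80 and 12.5 FPKM in the low set and 31.1 FPKM in Hoxa-flox 3, against at least 179.7 FPKM in the WT libraries. *Cd3e* was at 0 in all 6 libraries, and *Kdr* and *Cdh5*, markers of endothelium, did not exceed 0.0941 FPKM. Other markers were low but not at 0. *Col1a1* of stroma read 0.834 to 1.89 FPKM, *Pf4* of megakaryocytes 0.825 to 2.83 FPKM and *Mcpt8* of basophils 1.64 to 4.03 FPKM. The complement genes *C1qa* and *C1qb*, which mark mature macrophages, stayed at or below 0.461 FPKM, against at least 20.9 FPKM in the WT libraries. Each row was taken for the gene of its symbol, and it was not tested whether reads of neighbouring genes are merged into some rows.

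**Figure D3:**
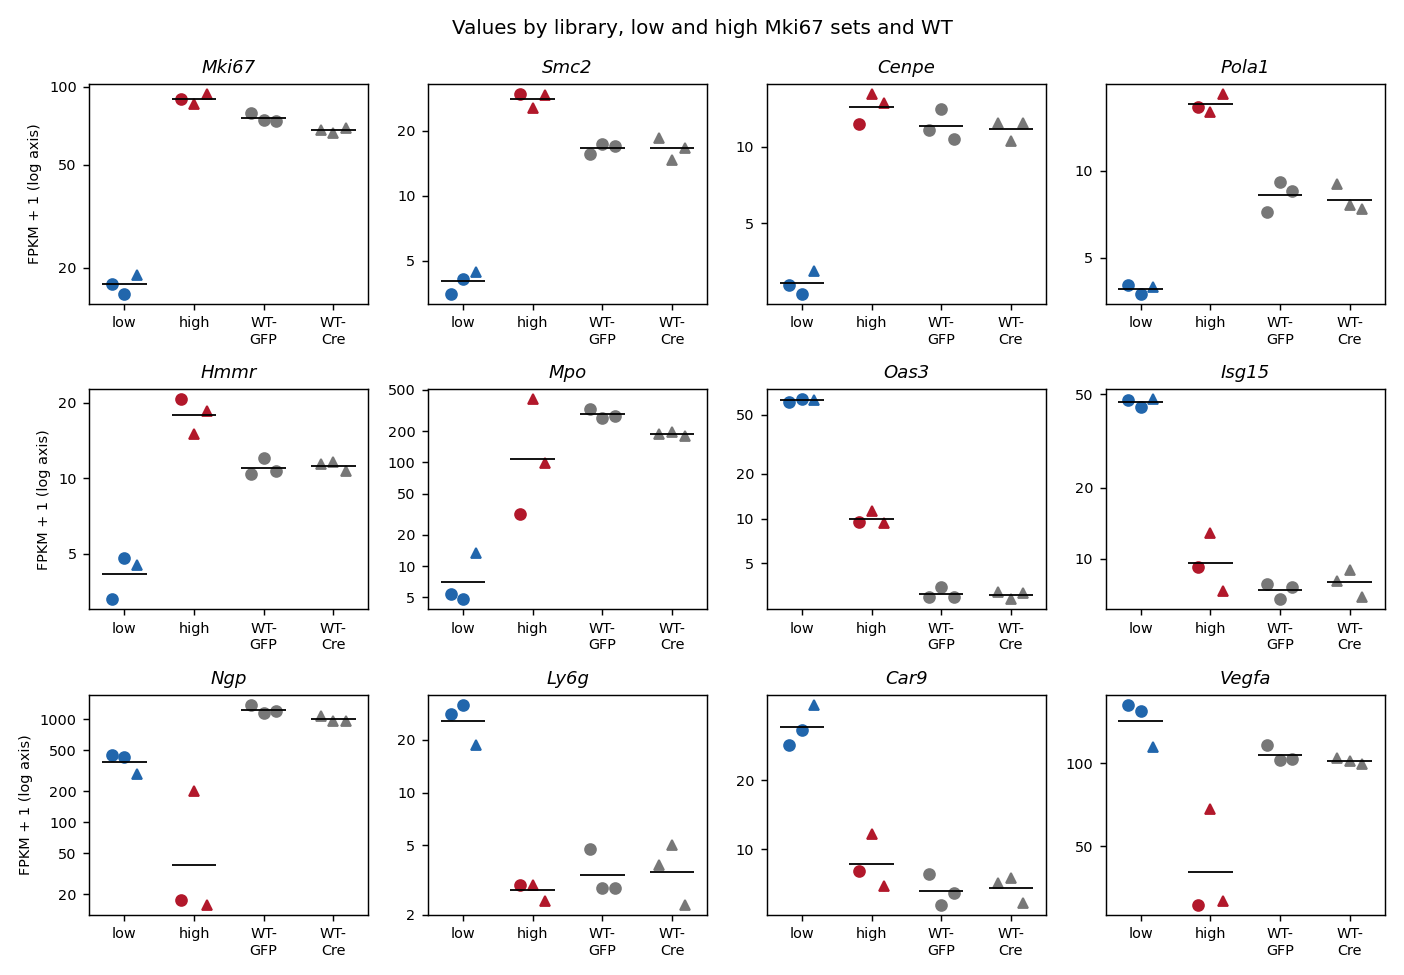
FPKM + 1 on a log axis for 12 genes, with the low and high *Mki67* sets and the WT groups on the x axis; points are libraries (circles control virus, triangles Cre) and bars the mean on the log scale. For *Smc2* the low set lies at 2.52 to 3.45 FPKM and the high set at 24.6 to 28.7 FPKM, and for *Oas3* the order is the reverse.

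Mitosis genes were higher in the high set almost throughout. *Mki67*, which chose the sets, is itself a gene of mitosis, so this direction largely follows from the choice. Other cell cycle genes below are tied to the choice as well. Over all symbols, 6.67% were at least 1 higher in the high set without overlap. Of 44 measured members, 37 were at least 1 higher in the high set without overlap and 0 were as much lower, with a median difference of 1.45 (1.497 after GC and length centring) against -0.10 over all symbols. *Cenpe*, a kinesin that carries chromosomes to the spindle equator, read 1.86, 1.63 and 2.23 FPKM in the low set and 11.4, 15.2 and 13.9 FPKM in the high set. *Hmmr*, which organizes spindle microtubules, read 2.29, 3.81 and 3.52 FPKM against 19.7, 14.1 and 17.6 FPKM. *Kif11*, the motor that pushes spindle poles apart, read 7.78, 7.86 and 7.36 FPKM against 37.9, 29.7 and 35.9 FPKM. These 3 genes were picked for a large difference among members whose sets do not overlap. That Hoxa-del 2 sat with Hoxa-flox 1 and 2 in them was therefore fixed by the choice. *Cenpf*, a kinetochore protein, and *Kif20b*, a kinesin of cell division, were higher in the high set by 2.08 and 2.13.

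Condensins fold chromosomes for mitosis, and cohesins hold sister chromatids together. Of 20 measured members of these complexes and of spindle assembly, 14 were at least 1 higher in the high set and 1 was lower (median 1.29). After centring 7 of the 18 with a GC value were higher in the high set and 0 in the low set, with a median of 0.91. *Smc2*, the core subunit of both condensins, read 2.52, 3.13 and 3.45 FPKM in the low set and 28.7, 24.6 and 28.3 FPKM in the high set. Its partner *Smc4* read 33.8, 37.8 and 52.6 FPKM against 107, 171 and 167 FPKM. The condensin subunits *Ncapg* and *Ncapg2* were higher by 1.94 and 1.98. The WT libraries read 13.7 to 17.6 FPKM for *Smc2*, between the sets.

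S phase genes differed in the same direction but less. Of 38 measured members 18 were at least 1 higher in the high set, 0 were as much lower, and the median was 0.99 (1.05 after centring). *Pola1*, the catalytic subunit of DNA polymerase alpha, read 3.03, 2.75 and 2.96 FPKM in the low set and 15.6, 15.0 and 17.4 FPKM in the high set. *Rrm2*, the regulated subunit of ribonucleotide reductase, read 16.3, 15.4 and 20.9 FPKM against 73.0, 57.4 and 64.3 FPKM. *Uhrf1*, which maintains DNA methylation behind the fork, was higher by 1.56 and *Gins1*, part of the replicative helicase, by 1.62. These 4 genes were named from members whose sets do not overlap, so the lack of overlap was fixed by the choice. The WT libraries read 6.20 to 8.13 FPKM for *Pola1*, between the sets.

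Replication-dependent histone genes showed no common direction without centring. Of 39 measured members 0 were at least 1 apart in either direction without overlap, and the median was 0.03, with 0.33 within the control virus and -0.59 within Cre. After GC and length centring 3 members were higher in the high set and 0 in the low set, with a median of 0.49, so the position of this group depends on that step. *Hist1h1c*, a linker histone, read 316, 331 and 682 FPKM in the low set and 263, 280 and 277 FPKM in the high set. *Hist1h2an*, a core histone, read 28.8, 32.9 and 54.3 FPKM against 64.2, 65.4 and 59.3 FPKM. Hoxa-del 2 was the highest of the 6 libraries for *Hist1h1c* and the highest of the low set for *Hist1h2an*. These messages lack a poly(A) tail, and the libraries were made by depletion of ribosomal RNA.

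Among inhibitors of the cell cycle and genes of quiescence, 6 of 28 were at least 1 higher in the low set and 2 in the high set (median -0.52). After centring these were 5 and 0 (median -0.24). Over all symbols the shares were 6.95% and 6.67%, so the count of 2 was near the background. *Ccnd2* is on this list although cyclin D2 promotes the cell cycle and is not an inhibitor of it. It read 9.09, 14.9 and 13.3 FPKM in the low set and 2.31, 5.74 and 2.38 FPKM in the high set, and 39.7 to 54.3 FPKM in the WT libraries. *Txnip*, an inhibitor of glucose uptake and thioredoxin, read 191, 192 and 222 FPKM against 75.7, 105 and 73.8 FPKM. *Ccng1*, a p53 target, was higher in the high set, with 31.9, 35.4 and 27.0 FPKM against 109, 46.7 and 89.5 FPKM. p53 targets as a group showed little difference, with 1 of 28 members higher in each set and a median of 0.23 (0.33 after centring). In the BCL2 family *Bmf*, a pro-apoptotic BH3-only gene, was the 1 of 12 measured members at least 1 apart, with 24.4, 20.4 and 25.4 FPKM in the low set and 3.83, 7.38 and 2.80 FPKM in the high set.

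The interferon response had the lowest median of the 46 gene groups. Of 46 measured members 26 were at least 1 higher there and 0 were as much higher in the high set, with a median of -1.31 (-1.03 after centring). *Oas3*, which makes the second messenger that activates RNase L, read 60.1, 62.9 and 62.5 FPKM in the low set and 8.41, 10.2 and 8.39 FPKM in the high set. *Isg15*, a ubiquitin-like modifier, read 46.2, 43.1 and 46.8 FPKM against 8.22, 11.9 and 6.31 FPKM. *Zbp1*, a sensor of left-handed nucleic acids, read 106, 108 and 90.7 FPKM against 20.1, 13.05 and 14.4 FPKM. In these 3 genes the low libraries, 2 with the control virus and 1 with the Cre virus, differed little from each other. The genes were picked for a large difference without overlap, which favors such a pattern. *Usp18*, which removes ISG15 and dampens the receptor, and *Irf7*, the factor that amplifies type I interferon, had differences of -2.41 and -2.02. The WT libraries read 1.85 to 2.46 FPKM for *Oas3*, below both sets, and the median of WT minus the high set was -0.26 over the group, and that of WT minus the low set -1.42.

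Other inducible groups also had members higher in the low set, but fewer. Of 28 NF-kB and inflammatory genes 4 were at least 1 higher there (median -0.40, or -0.18 after centring). *Socs3*, a feedback inhibitor of cytokine signalling, read 18.4, 18.4 and 21.3 FPKM against 7.42, 7.45 and 7.97 FPKM. Of 24 immediate early genes 6 were higher in the low set and 1 in the high set (median -0.66). After centring 0 were higher in the low set and 1 in the high set (median -0.34), so all 6 were lost. *Jun*, a subunit of AP-1, read 38.9, 39.7 and 41.2 FPKM against 5.44, 27.9 and 11.4 FPKM. *Dusp6*, a phosphatase that limits ERK, was the member higher in the high set, with 1.80, 2.35 and 2.37 FPKM against 13.01, 6.71 and 9.82 FPKM, and 42.7 to 45.5 FPKM in WT.

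Late neutrophil genes included several of the largest differences. Of 26 measured members 10 were at least 1 higher in the low set and 0 in the high set, with a median of -1.22 (-0.95 after centring). *Padi4*, which citrullinates histones, read 111, 112 and 105 FPKM in the low set and 7.69, 16.3 and 8.21 FPKM in the high set. *Ly6g*, the surface marker of mouse neutrophils, read 27.0, 30.8 and 17.7 FPKM against 1.95, 1.95 and 1.40 FPKM. *Mmp9*, gelatinase B, read 59.2, 61.1 and 48.3 FPKM against 6.27, 4.81 and 5.45 FPKM. *Ngp*, a protein of secondary granules, read 453, 433 and 293 FPKM against 16.5, 201 and 14.8 FPKM, so Hoxa-del 1 stood apart within the high set. The same held for the group, in which 12 of 26 members overlapped. Relative to the mean of the 6 libraries, the group's median in Hoxa-del 1 was 0.42, near the 0.64, 0.62 and 0.47 of the low set. Hoxa-flox 3 and Hoxa-del 3 stood at -0.94 and -0.99. The list summed to 3553 to 3799 FPKM in the low set, 947 to 2879 FPKM in the high set and 10886 to 11682 FPKM in the WT libraries. *Ngp* itself read 976 to 1392 FPKM in WT, where *Mki67* was near its level in the high set.

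Genes of the earlier, primary granules were not shifted as a group: 1 of 17 was higher in each set, with a median of 0.19, and after centring 3 were higher in the high set and 1 in the low set, with a median of 0.12. *Mpo*, myeloperoxidase, had the largest difference of the symbols named by rank in that direction, 3.95, with 4.42, 3.80 and 12.5 FPKM in the low set and 31.1, 407 and 98.2 FPKM in the high set. It spread widely within the high set, and within the control virus the difference was 2.65. *Elane*, neutrophil elastase, read 1293, 1318 and 1684 FPKM in the low set and 943, 1590 and 841 FPKM in the high set and overlapped. The member higher in the low set was *F13a1*, with 14.5, 15.9 and 16.0 FPKM against 1.54, 6.66 and 2.89 FPKM. It encodes a coagulation factor XIII subunit, which is on the list but is not a primary granule protein.

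Monocyte and macrophage genes were higher in the low set in 10 of 24 measured members and in the high set in 0 (median -0.88, or -0.84 after centring). *Cd68*, a lysosomal membrane protein of phagocytes, read 126, 129 and 121 FPKM in the low set and 23.1, 24.4 and 22.7 FPKM in the high set. *Ly6c2*, a surface marker of inflammatory monocytes, read 1830, 1706 and 1678 FPKM against 342, 590 and 189 FPKM. *Cd14*, the co-receptor for lipopolysaccharide, and *Lgals3*, a galectin, had differences of -2.06 and -2.23. The list summed to 3225 to 3341 FPKM in the low set, 785 to 1387 FPKM in the high set and 4478 to 5060 FPKM in WT, and the sets did not overlap. The receptor for M-CSF, *Csf1r*, read 28.6, 28.6 and 30.5 FPKM against 4.53, 8.68 and 7.89 FPKM.

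Antigen presentation and lysosomal genes ran the same way. Of 9 measured MHC class II and dendritic genes 5 were at least 1 higher in the low set, or 3 after centring (median -1.25, or -0.78 after centring). *H2-Ab1*, a class II beta chain, read 21.2, 24.2 and 28.3 FPKM against 8.12, 8.76 and 5.72 FPKM. Of 36 lysosomal, cathepsin and autophagy genes 13 were higher in the low set and 0 in the high set (median -0.76, or -0.52 after centring). *Psap*, the precursor of the saposins, read 235, 230 and 239 FPKM against 69.8, 66.2 and 58.6 FPKM, and 479 to 542 FPKM in WT.

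Surface and signalling genes set the low libraries apart as well. Of 33 cytokine receptor and signalling genes 8 were higher in the low set and 1 in the high set (median -0.65). After centring these were 4 and 0 (median -0.39). *Il3ra*, the alpha chain of the receptor for IL-3, which was in the medium, read 89.4, 94.4 and 108 FPKM against 27.9, 28.1 and 28.2 FPKM. *Cish*, a target of STAT5, read 64.5, 57.3 and 80.0 FPKM against 26.0, 18.4 and 26.4 FPKM. Of 26 adhesion and migration genes 6 were higher in the low set (median -0.64, or -0.50 after centring), among them *Itgb7*, an integrin subunit, with 21.1, 23.8 and 32.05 FPKM against 2.54, 3.65 and 3.39 FPKM. *Cxcr4*, the receptor that retains cells in the marrow, read 143, 135 and 171 FPKM against 56.2, 78.8 and 46.5 FPKM.

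Of 19 stem and progenitor surface genes 2 were higher in the low set and 1 in the high set (median -0.27), and after centring 5 and 1 (median -0.32). Before centring these counts were near the shares over all symbols, 6.95% and 6.67%. *Thy1* read 243, 228 and 163 FPKM in the low set and 43.3, 17.8 and 28.7 FPKM in the high set, and at most 0.455 FPKM in the WT libraries. *Tfrc*, the transferrin receptor that dividing cells use to take up iron, was the member higher in the high set, with 8.45, 8.81 and 11.9 FPKM against 47.8, 56.1 and 46.5 FPKM. *Cd34* overlapped between the sets, with 65.9, 64.8 and 55.3 FPKM against 75.9, 65.2 and 63.0 FPKM. Of 11 measured stromal and endothelial genes 5 were higher in the low set (median -0.92, or -0.70 after centring). They were led by *Thbs1*, thrombospondin, at 637, 622 and 646 FPKM against 72.8, 415 and 103 FPKM. *Col3a1*, *Cdh5* and *Kdr* were at or near 0, and *Col1a1* read 0.834 to 1.89 FPKM.

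Metabolic genes split between the sets. Glycolysis and hypoxia genes, counted without *Pgk1*, were at least 1 higher in the low set in 14 of 37 members, or 9 after centring, and in the high set in 0 (median -0.86, or -0.55 after centring). *Car9*, a carbonic anhydrase induced by HIF-1, read 27.6, 32.2 and 41.8 FPKM in the low set and 7.09, 10.7 and 5.91 FPKM in the high set. *Vegfa*, the angiogenic growth factor, read 162, 153 and 114 FPKM against 29.7, 67.1 and 30.7 FPKM. The 3 measured transcripts of the mitochondrial genome were higher in the high set, or 2 of them after centring (median 1.99, or 1.38 after centring), with *mt-Nd6*, a complex I subunit, at 115, 175 and 155 FPKM against 607, 1019 and 1067 FPKM. *mt-Co1*, the catalytic subunit of cytochrome oxidase, read 1958, 2464 and 2085 FPKM against 4513, 5285 and 6676 FPKM. Respiratory chain genes of the nucleus showed no such difference, with 1 of 33 members higher in the high set and a median of 0.01 (0.18 after centring), with 0.40 within the control virus and -0.25 within Cre.

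Sterol and fatty acid synthesis genes were higher in the high set in 7 of 33 members and in the low set in 0 (median 0.59, or 0.69 after centring). *Cyp51*, which demethylates lanosterol, read 10.4, 6.53 and 6.44 FPKM in the low set and 36.1, 18.5 and 26.4 FPKM in the high set. *Scd2*, a fatty acid desaturase, read 45.2, 45.6 and 50.4 FPKM against 213, 87.7 and 153 FPKM, and 13.2 to 14.9 FPKM in WT. Both genes were lowest in Hoxa-del 1 among the high libraries. The group's median difference was 0.99 within the control virus and 0.31 within Cre. Relative to the mean of the 6 libraries, the group's median in Hoxa-del 1 was -0.07, near the -0.39, -0.37 and -0.11 of the low set, while Hoxa-flox 3 and Hoxa-del 3 stood at 0.55 and 0.37.

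The translation machinery was not shifted as 1 block. Of 40 ribosome biogenesis and MYC target genes 7 were higher in the high set and 0 in the low set (median 0.32), but the median was 0.62 within the control virus and 0.00 within Cre. After centring 8 were higher in the high set and 0 in the low set, with a median of 0.57. *Ncl*, nucleolin, read 81.8, 78.1 and 73.3 FPKM in the low set and 284, 197 and 336 FPKM in the high set, and *Npm1*, a nucleolar chaperone, read 74.9, 80.2 and 95.6 FPKM against 263, 205 and 227 FPKM. Of 72 cytosolic ribosomal proteins 12 were higher in the low set and 0 in the high set (median -0.56). After centring 1 was higher in each set (median -0.37). *Rps14*, a subunit of the small ribosome particle, read 774, 822 and 1151 FPKM against 390, 323 and 331 FPKM. Many ribosomal protein genes have near-identical processed copies, so their values are uncertain. Of 36 spliceosome and RNA processing genes 8 were higher in the high set, or 3 after centring (median 0.54, or 0.47 after centring), for example *Srsf10*, a splicing regulator, at 11.9, 13.6 and 16.3 FPKM against 41.6, 36.5 and 50.8 FPKM.

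**Figure D4:**
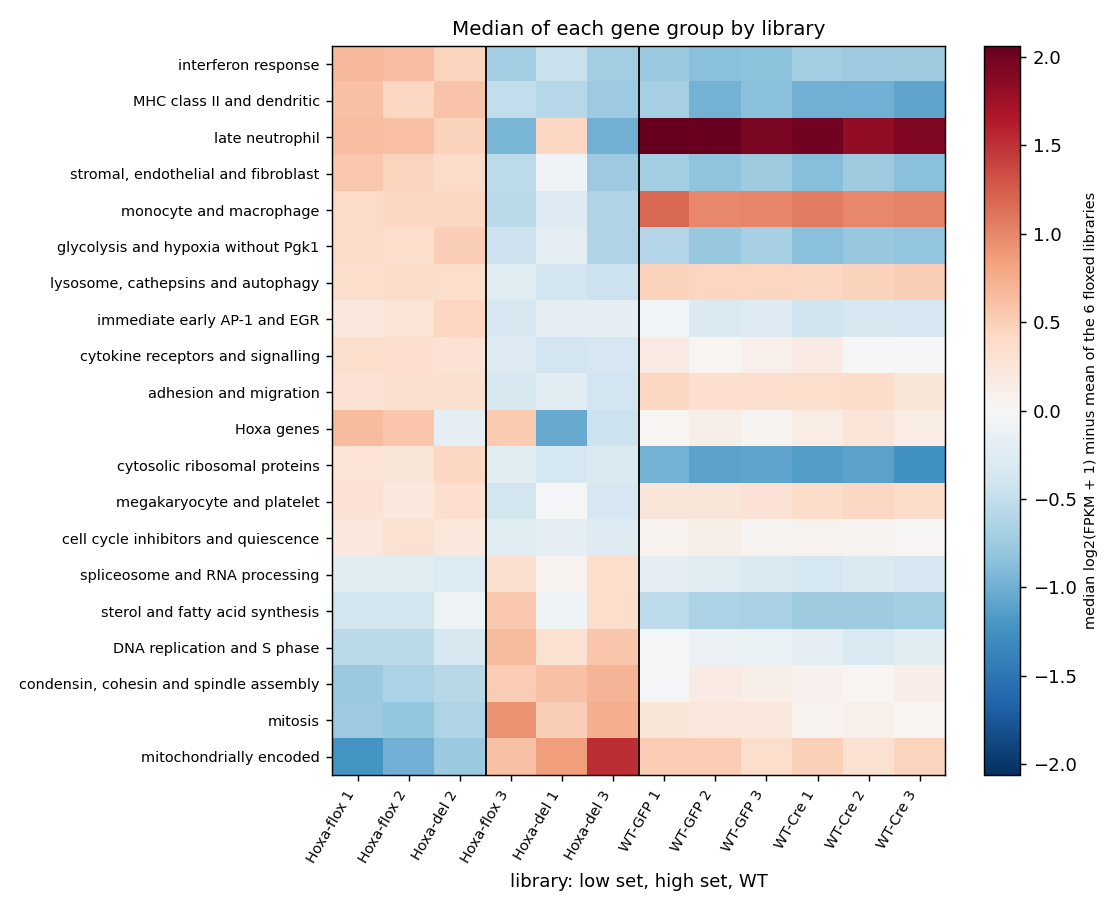
Median of each gene group (rows) in each library (columns) on the log2(FPKM + 1) scale, relative to the mean of the 6 floxed libraries; black lines separate the low set, the high set and the WT libraries. Shown are the groups whose set difference was at least 0.5 in either direction; the late neutrophil row has its highest values in the WT libraries, and Hoxa-del 1 lies near the low set in that row.

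Of the 12 largest single differences toward the low set, 4 were the late neutrophil genes *Ngp*, *Padi4*, *Ly6g* and *Mmp9* described above, *Lgals3bp* was on the interferon list and *S100a6* on the cytoskeleton list, and 6 were on no list. *Dpep2*, a dipeptidase that acts on leukotrienes, read 64.2, 60.9 and 47.9 FPKM in the low set and 2.81, 4.97 and 2.41 FPKM in the high set. *Lsp1*, an actin-binding protein of leukocytes, read 155, 149 and 150 FPKM against 10.6, 15.7 and 15.7 FPKM. *S100a6*, a calcium-binding protein, read 366, 367 and 431 FPKM against 39.4, 46.3 and 41.6 FPKM. *Tgm2*, transglutaminase 2, read 712, 696 and 747 FPKM against 58.1, 197 and 57.4 FPKM. Also among the 12 largest in this direction were *Lgals3bp*, *Tmem86a*, *Gstt1* and *Myl10*, with differences of -3.28, -3.21, -2.98 and -2.88. *Gstt1*, a glutathione transferase, read at most 0.351 FPKM in the WT libraries, below both sets.

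In the other direction the 12 included *Mpo*, *Smc2* and *mt-Nd6*, described above, and several short or unnamed rows. *Gm27972* read 0, 0 and 0.718 FPKM in the low set and 14.2, 28.9 and 11.97 FPKM in the high set, and *Gm11204* and *Gm25683* were listed at 0 in all low libraries. *Gm16331*, *Gm37589*, *Gm21857* and *C330027C09Rik* also belonged to them. *Rgs18*, which limits G protein signalling in blood cells, read 1.71, 1.74 and 4.72 FPKM against 16.4, 18.7 and 19.3 FPKM, with 19.7 to 28.0 FPKM in WT. *Usp3*, a deubiquitinase of histones, read 2.64, 0.67 and 0 FPKM against 8.35, 8.97 and 12.7 FPKM.

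The WT libraries did not match either set. Their r across symbols was 0.859 to 0.905 with high libraries and 0.864 to 0.897 with low libraries. Of the 856 symbols higher in the high set, the WT mean lay on the side of the high set for 530 (61.9%), and of the 892 higher in the low set for 556 (62.3%). For 309 of the latter it lay beyond the high set. WT stood with or beyond the high set for interferon, MHC class II and glycolysis genes, with medians of WT minus high of -0.26, -0.11 and -0.32. It stood above both sets for late neutrophil genes, 1.37 above the low set, and for monocyte genes, 0.59 above it. For S phase genes it lay between the sets, with a median of 0.32 against the low and of -0.76 against the high set.

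Whether Cre changed the floxed cells was then tested with the set as a term, which the virus label crosses. The set comes from *Mki67* values of the same libraries, so the term takes out a split chosen from these data. In limma with Benjamini-Hochberg adjustment over 12843 symbols, 1 rose and 3 fell with Cre (0.0311% of those tested), and 1600 had an unadjusted p under 0.05. Without the set term the counts were 1 and 3, and 815 had an unadjusted p under 0.05. *Hoxa9*, the homeodomain factor most tied to MLL leukemia, read 235 and 217 FPKM in the control libraries of the low set and 114 FPKM in its Cre library. In the high set it read 257 FPKM with the control virus and 83.5 and 119 FPKM with Cre. Its change was -1.17 (SE 0.15, limma adjusted p = 0.0286), and it was -0.98 within the low set and -1.36 within the high set. The SE draws on the spread of all 12 libraries, and the WT groups had a lower spread than the floxed sets. Over alternatives the limma adjusted p of *Hoxa9* ran from 0.00708 to 0.538. The call was lost in 12 of 22, among them the fit of the 6 floxed libraries only. Without Hoxa-flox 3 the counts over all symbols were 34 rising and 15 falling, without Hoxa-del 2 they were 13 and 7, and without Hoxa-del 3 they were 3 and 7.

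All 6 measured Hoxa genes were lower in every Hoxa-del library than in every Hoxa-flox library, and their median change was -1.07. *Hoxa10* read 127 and 131 against 81.5 FPKM in the low set and 109 against 28.3 and 44.7 FPKM in the high set. *Hoxa11* read 41.0 and 38.9 against 23.5 FPKM and 35.0 against 8.34 and 16.9 FPKM. *Hoxa7* read 42.6 and 40.5 against 26.9 FPKM and 53.2 against 13.2 and 26.2 FPKM. *Hoxa2* read 76.0 and 76.5 against 40.005 FPKM and 44.0 against 32.5 and 28.5 FPKM, and *Hoxa4* 3.24 and 4.01 against 1.96 FPKM and 5.31 against 3.07 and 2.87 FPKM. Of these 5, 0 passed over all symbols (limma adjusted p = 0.111 to 0.24). Summed over the 6 genes, the low set held 525 and 508 FPKM with the control virus and 288 FPKM with Cre, and the high set 504 FPKM against 169 and 238 FPKM. The median difference between the sets was -0.62 over all 6 libraries, which hold unequal numbers of Cre libraries, 0.00 within the control virus and -0.45 within Cre.

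*Pgk1*, a glycolytic enzyme, and *Aebp1*, a transcriptional repressor, were the other genes that fell. *Pgk1* read 2642 and 2664 against 417 FPKM in the low set and 1791 against 380 and 622 FPKM in the high set (change -2.27, SE 0.21, limma adjusted p = 0.00219). *Aebp1* read 3658 and 4037 against 668 FPKM and 2314 against 514 and 821 FPKM (change -2.18, SE 0.20, limma adjusted p = 0.00219). Both were also lower with Cre in the WT cells, where *Pgk1* read 718 to 849 FPKM with the control virus and 165 to 181 FPKM with Cre, and *Aebp1* 1134 to 1212 and 324 to 346 FPKM. Both calls were lost in the fit of the 6 floxed libraries only (adjusted p = 0.228 each). The symbol that rose, *Rn7sk*, the small nuclear 7SK RNA, stood at 0 in each Hoxa-flox library and between 34966 and 140447 FPKM in Hoxa-del. The table does not show whether such a 0 was measured or stands for an estimate that failed.

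**Figure D5:**
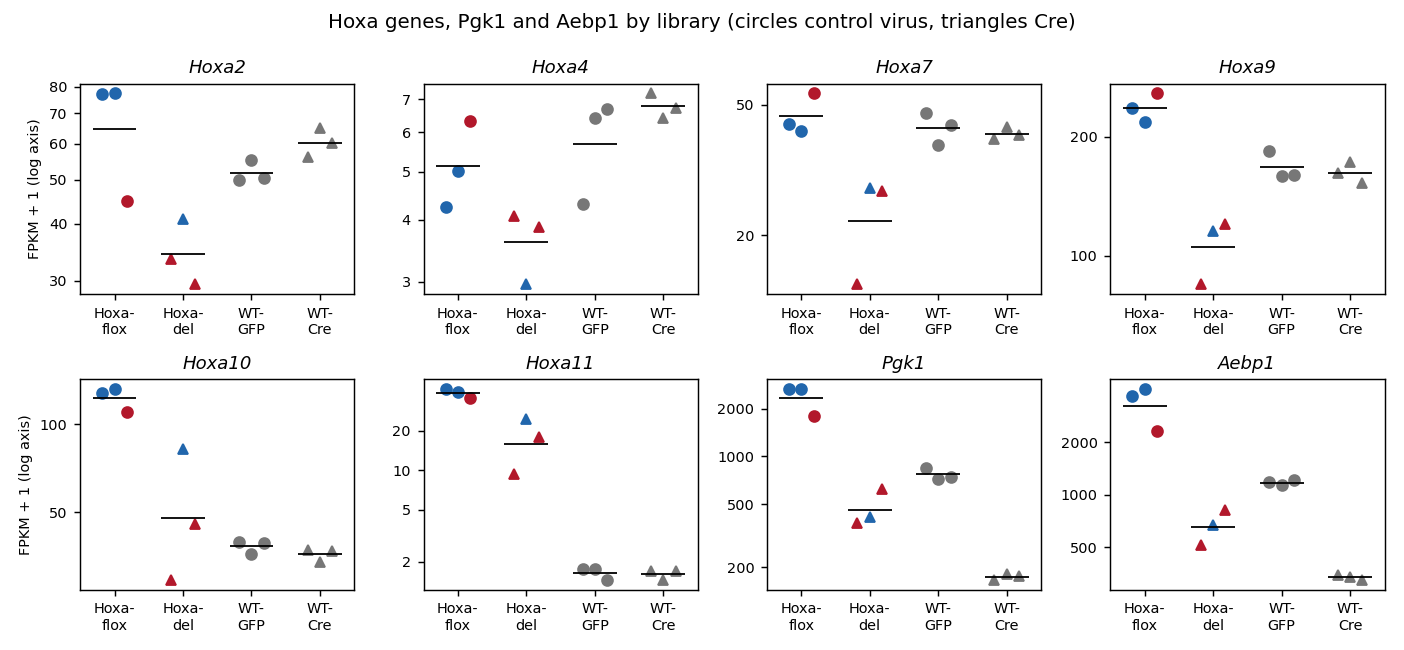
FPKM + 1 on a log axis for 6 Hoxa genes, *Pgk1* and *Aebp1* by group; each point is a library (blue low set, red high set, grey WT) and each bar the mean on the log scale. For each of the 8 genes every Hoxa-del point lies below every Hoxa-flox point, whichever set it belongs to, and *Pgk1* and *Aebp1* are also lower in WT-Cre than in WT-GFP.

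With the set as a term, 0 members of the groups below were called for the Cre change by limma. Mitosis genes had a median Cre change of -0.07, S phase genes of 0.01, interferon genes of 0.02 and glycolysis genes of 0.07, against -0.03 over all symbols. Late neutrophil genes had a median of 0.31, and the 3 mitochondrially encoded genes of 0.45. Replication-dependent histones had a median of 0.53.

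The difference of the Cre change between the sets rests on Hoxa-flox 3 and Hoxa-del 2, which are alone in their set and virus and were assumed to vary like the other libraries. Limma called 33 symbols (0.257%), 15 with a higher and 18 with a lower Cre change in the high set, and 2381 had an unadjusted p under 0.05. Of the Hoxa genes 0 were called; the largest difference was that of *Hoxa10*, -0.93 (SE 0.30, limma adjusted p = 0.174). In the fit of the 6 floxed libraries only, limma called 0 symbols, with 1206 at an unadjusted p under 0.05. Without Hoxa-del 3 the counts were 786 and 1117, and without Hoxa-del 1 they were 57 and 55. *Kmt2a*, which encodes MLL itself, was among the called symbols, with 71.1 and 74.5 against 53.8 FPKM in the low set and 77.7 against 132 and 120.0 FPKM in the high set (difference 1.12, SE 0.15, limma adjusted p = 0.0281). *Xist*, the non-coding RNA of X inactivation, read 134 and 138 against 124 FPKM and 144 against 293 and 266 FPKM (difference 1.09, SE 0.14, limma adjusted p = 0.0238). *Brwd1*, a chromatin reader, read 11.7 and 9.75 against 3.81 FPKM and 12.4 against 20.8 and 17.0 FPKM (difference 1.84, SE 0.26, limma adjusted p = 0.0347). The 10 symbols with the smallest adjusted p and a lower change were short rows, such as *Mir1190* and *n-R5s183*, that were listed at 0 in nearly all libraries and above 0 in Hoxa-del 2, the library with the lowest estimated depth of the 6. The other 8 with a lower change included the replication-dependent histones *Hist1h4a*, *Hist1h4b* and *Hist2h2bb*, with differences of -1.45, -1.14 and -1.34, and *Ms4a3*, with -1.01.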

How the data were processed

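Total RNA was isolated with TRIzol, and stranded libraries depleted of ribosomal RNA were sequenced on a NextSeq instrument, per the labels' protocols. The submitters' processing notes name Cuffdiff 2.2.2.20150701, Cufflinks, STAR, mm10 and GRCm38 without giving their roles. The deposited values were taken as FPKM, the unit Cufflinks gives, since the table's header names no unit; the scaling between libraries is not given in the sources used here. The table held 28042 rows for 25263 symbols; for the 1855 symbols with several rows the one with the highest mean was kept. Depth was estimated from whole-fragment steps among low values (52.1% to 60.3% of values on steps within 0.02 on the log2 scale) and came to 3.67 to 17.4 M fragments.

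Values were transformed as log2(FPKM + 1), and 12843 symbols that averaged at least 1 FPKM over the 6 floxed libraries were kept. The difference between the sets was described without a test, because *Mki67* values chose the sets. The Cre change with the set as a term, and its difference between the sets, were tested with limma-trend 3.58.1 (R 4.3.3) over all 12 libraries. P-values were adjusted by Benjamini-Hochberg with 0.05 as the threshold. The WT libraries thus entered the estimate of spread. Their median SD per symbol was 0.114 (WT-GFP) and 0.121 (WT-Cre), against 0.144 in the low set and 0.220 in the high set. Limma was also run on simulated data. Since separate cultures are not stated, p-values reflect only the spread among the libraries, which may be technical. Python 3.11.15, pandas 2.3.3, numpy 2.4.6 and matplotlib 3.10.9 were used. GC content and length came from the longest GENCODE M21 transcript, and promoters from RefSeq (GRCm38.p6).

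Named symbols were the 12 with the largest difference in each direction among those without overlap and with at least 5 FPKM in the higher set, and up to 4 members of each of 46 gene lists by the same criteria, or the 2 with the highest mean. For Cre and its difference between the sets, every measured Hoxa gene and up to 10 symbols per direction with the smallest adjusted p were named. *Isg15*, *Kif11*, *Cd34* and *Elane* fall outside this rule and were chosen after their values were seen. The same holds for *Hist1h4a*, *Hist1h4b*, *Hist2h2bb* and *Ms4a3*, named for the difference of the Cre change between the sets. For *Isg15* and *Kif11* a motif match in the printed promoter was part of the choice. The members and lists were chosen with earlier results of these data known. Alternatives were another pseudocount, other filters and scalings, libraries left out, a replicate block, array weights and, added after seeing the data, centring within bins of GC content and length.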

Additional observations from a re-analysis of the deposited data

Results flagged for a closer look

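The Cre change differed between the sets for 33 symbols by the test of that difference (limma, adjusted p under 0.05), 15 with a higher and 18 with a lower change in the high set; the 10 of each direction with the smallest adjusted p are given here. The values are the Cre change in the high set minus that in the low set on the log2(FPKM + 1) scale. Each rests on Hoxa-flox 3 and Hoxa-del 2 as the only libraries of their set and virus. The 10 with a lower change in the high set and the smallest adjusted p were short rows: *Gm23318* (-5.37), *Gm22888* (-3.66), *Gm25894* (-3.65), *Mir1190* (-3.28), *Gm24592* (-3.13), *Gm25698* (-3.13), *Gm23217* (-3.13), *Mir695* (-3.11), *Gm22208* (-3.09) and *n-R5s183* (-2.98). Of these, 9 were listed at 0 in every library but Hoxa-del 2, and *Gm23318* read 7.68 FPKM in Hoxa-del 2 and 3.75 FPKM in Hoxa-flox 3.

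The 10 with a higher change in the high set and the smallest adjusted p were *Gm11572* (2.55), *Gm27702* (2.22), *Brwd1* (1.84), *Pde1b* (1.84), *Gm4955* (1.54), *Inpp4a* (1.44), *Fam193b* (1.36), *Kmt2a* (1.12), *Xist* (1.09) and *Safb2* (1.09). *Pde1b*, a cyclic nucleotide phosphodiesterase, read 17.5 and 18.9 FPKM with the control virus and 10.5 FPKM with Cre in the low set, and 9.50 FPKM against 24.6 and 18.9 FPKM in the high set. *Safb2*, a nuclear scaffold protein, read 75.4 and 70.6 against 46.5 FPKM, and 61.7 against 88.5 and 80.6 FPKM. *Gm11572* was listed at 0 outside Hoxa-flox 1 and 2.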

How the results depend on the processing

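With 1 floxed library left out, 851 to 968 symbols were higher in the high set and 817 to 1073 in the low set. With a mean of at least 5 FPKM, 9005 symbols were measured, and 542 were higher in the high set and 694 in the low set. The part of the smaller number of symbols in this was not tested. After centring within GC and length bins, chosen after seeing the data, 539 were higher in the low set. The other counts stayed within 1.5 times. Of 20 gene groups with a median of at least 0.5 in either direction, 2 changed sign: megakaryocyte genes with a mean of at least 5 FPKM (0.0944) and Hoxa genes within the control virus (0.0011).

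For the Cre change with the set as a term, 0 symbols fell in the fit of the 6 floxed libraries only, and 2 rose after GC and length centring. With 1 library left out, 1 to 34 symbols rose, 2 to 15 fell and the Hoxa median ran from -1.41 to -0.70. For its difference between the sets, a pseudocount of 0.1 left 6 symbols lower in the high set. Without a filter 80 were higher and 233 lower, with a mean of at least 5 FPKM 8 were lower, with array weights 37 were higher and 47 lower, and with the 6 floxed libraries only 0 and 0. With 1 library left out, 1 to 786 were higher and 11 to 1117 lower, and the Hoxa median ran from -0.92 to -0.20. The cause of these shifts was not tested. The difference could not be fitted without Hoxa-flox 3 or Hoxa-del 2, which leaves a combination empty.

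Whether the replicate numbers pair the samples could not be decided. Same-numbered Hoxa-flox and Hoxa-del libraries had correlations of -0.29, 0.60 and 0.71, and 1 of 3 Hoxa-del libraries correlated best with its own number. Hoxa-del 2 had 0.603 with Hoxa-flox 1 and 0.600 with Hoxa-flox 2. Both libraries numbered 2 are in the low set and both numbered 3 in the high set, so the correlations also hold the split between the sets. With a replicate block 1 symbol rose and 2 fell with Cre, and the difference between the sets held 0 higher and 10 lower. Depth limits rows with few fragments, so short rows at or near 0 carry little weight.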

Other observations

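As a group, chromatin regulators were near the background. Of 34 measured MLL, DOT1L and Polycomb genes 4 were at least 1 higher in the high set and 3 in the low set, against 6.67% and 6.95% over all symbols, with a median of 0.08 (0.06 after GC and length centring, when 2 and 1 were as far apart). Single members stood far apart. *Suz12*, a core subunit of the Polycomb complex that methylates histone H3, read 17.3, 19.5 and 15.2 FPKM in the low set and 60.2, 55.4 and 61.6 FPKM in the high set. *Cbx8*, a subunit of the other Polycomb complex and a partner of AF9, went the other way, with 14.9, 13.8 and 22.8 FPKM against 2.26, 5.59 and 3.23 FPKM. *Psip1*, which tethers MLL to chromatin, read 6.75, 5.81 and 8.47 FPKM against 23.6, 22.4 and 24.6 FPKM. Of 22 measured genes linked to MLL-AF9 and self-renewal 1 was at least 1 apart: *Jmjd1c*, a histone demethylase, at 76.1, 72.9 and 71.7 FPKM against 122, 157 and 173 FPKM. *Meis1*, the cofactor of Hox proteins, read 51.8, 55.3 and 60.01 FPKM against 74.6, 83.1 and 96.2 FPKM, and *Cdk6*, a cell cycle kinase, 532, 536 and 535 FPKM against 346, 333 and 270 FPKM. After GC and length centring the difference of *Meis1* went from 0.59 to 0.03.

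Stress and clock groups held a few members far apart, beside shares of 6.67% and 6.95% over all symbols. In the high set 2 of 21 heat shock genes were at least 1 higher (median 0.43). In the low set 4 of 33 ATF4 and unfolded protein response genes (median -0.01), 2 of 14 clock genes (median -0.34) and 1 of 25 oxidative stress genes (median -0.13) were as much higher. In each of the 4 groups 0 went the other way. After centring these counts were 2, 2, 2 and 0. *Hspd1* and *Hsp90aa1*, chaperones of mitochondria and cytosol, read 43.3, 39.6 and 33.4 FPKM against 177, 78.1 and 135 FPKM and 111, 116 and 113 FPKM against 411, 245 and 371 FPKM. *Ern1*, the sensor IRE1 of the unfolded protein response, read 91.0, 88.7 and 88.7 FPKM in the low set and 24.5, 49.8 and 31.9 FPKM in the high set. *Nfil3*, a repressor of D-box genes, read 38.4, 37.7 and 42.5 FPKM against 14.2, 14.0 and 11.8 FPKM. *Gpx4*, which detoxifies lipid peroxides, read 78.9, 80.7 and 91.0 FPKM against 45.2, 31.0 and 32.2 FPKM.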
